A study of Homo sapiens with 2 samples.

Results

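The receptor tyrosine kinase genes were described in the pan-Kcr peak list of T98G cells, an established human glioblastoma line. The group held 56 genes in 19 subfamilies, taken from the known membership of the family and not from their values. A peak was counted for a gene when the deposited list assigned it by gene symbol, which gave 33 peaks at 18 genes, or when the annotation text placed it inside the gene while another transcript start was nearer, which added 13. In all, 22 of the 56 genes held 46 of the 10041 listed peaks.

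The list came from 1 chromatin immunoprecipitation (ChIP) library of T98G cells treated with crotonate, made with an antibody against crotonylated lysine on any protein, and from 1 input library of the same treatment. The peak names also carry the tag pCW, which the labels do not explain, and whether the cells carried a construct is not known here. Crotonate is a precursor of crotonyl-CoA and was added for 48 h, at 10 µM by the deposited design text. Both libraries carried the treatment, the control cells are not analysed here, and since a single ChIP library was made, no replicate error can be given and conditions are not compared. Read totals are not part of the list and the depth of the libraries is unknown. All intervals below are exact 95% intervals that cover counting error only.

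Receptor tyrosine kinases are single-pass membrane proteins whose extracellular part binds a growth factor, an ephrin, a collagen or a Wnt ligand and whose cytoplasmic part carries a tyrosine kinase domain. Ligand binding brings receptors together, they phosphorylate each other, and adaptors pass the signal to RAS and ERK, to phosphoinositide 3-kinase and AKT, and to phospholipase C gamma. In glioblastoma, EGFR, PDGFRA and MET are the members best known for amplification or mutation. Lysine crotonylation of histones is a mark found at active promoters and enhancers.

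The start windows of the receptor genes held no peak. RefSeq windows from 250 bases before to 50 bases after a gene start were available for 50 of the 56 genes, with 82 windows. Of the 82, 0 overlapped a peak, where a count of 0 allows a share of up to 4.40%. This limit treats the windows as independent, although several belong to the same gene. Over all RefSeq windows the share was 0.333%, so that a window with a peak would have been rare in a group of this size. The windows at the outermost start of EGFR, IGF1R and NTRK3 are printed because EGFR is the best known receptor of this tumour and because IGF1R and NTRK3 held all 11 receptor peaks of chromosome 15, none of them at this start. Capitals mark each GC box, GGGCGG or CCGCCC, the letters bound by SP1 on either strand, and the windows are 5′ to 3′ on the strand of the gene from RefSeq on GRCh38.p14.
EGFR, chr7:55018767-55019066, plus strand: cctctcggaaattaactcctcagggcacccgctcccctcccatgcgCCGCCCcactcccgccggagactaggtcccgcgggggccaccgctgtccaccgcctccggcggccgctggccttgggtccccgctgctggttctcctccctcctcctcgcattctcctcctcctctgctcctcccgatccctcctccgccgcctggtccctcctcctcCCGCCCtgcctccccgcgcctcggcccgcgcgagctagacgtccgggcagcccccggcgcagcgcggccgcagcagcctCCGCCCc
IGF1R, chr15:98648289-98648588, plus strand: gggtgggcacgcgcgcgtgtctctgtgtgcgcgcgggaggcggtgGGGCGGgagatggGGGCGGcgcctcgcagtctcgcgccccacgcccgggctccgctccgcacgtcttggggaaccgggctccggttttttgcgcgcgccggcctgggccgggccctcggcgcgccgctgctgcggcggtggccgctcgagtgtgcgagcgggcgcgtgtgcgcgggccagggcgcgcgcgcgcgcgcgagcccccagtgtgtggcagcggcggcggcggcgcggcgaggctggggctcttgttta
NTRK3, chr15:88256690-88256989, minus strand: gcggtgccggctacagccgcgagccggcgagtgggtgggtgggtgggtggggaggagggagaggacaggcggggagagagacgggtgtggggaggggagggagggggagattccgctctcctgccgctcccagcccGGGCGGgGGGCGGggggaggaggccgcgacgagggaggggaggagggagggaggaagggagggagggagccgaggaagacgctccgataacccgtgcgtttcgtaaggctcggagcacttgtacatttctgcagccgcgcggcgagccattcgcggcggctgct
The EGFR window held 3 GC boxes and 33 CpG dinucleotides, the IGF1R window 2 and 55, and the NTRK3 window 2 and 30. A GC box was found in 45.0% of all 35116 windows and in 52 of the 82 windows of the receptor genes, several of which belong to the same gene. The nearest peak of each gene lay 23.3 kb from the EGFR start, 179 kb from the IGF1R start and 29.5 kb from the NTRK3 start.

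Over the whole family, a peak was more often found in long genes. Of the 56 genes, 22 had a peak (39.3%, interval 26.5 to 53.2%), beside 19.5% of 20037 protein-coding genes under the same rule. By symbol alone the count was 18 of 56 (32.1%), beside 17.2%. The median length was 84.1 kb for the receptor genes and 24.1 kb for all protein-coding genes, and peaks per gene cannot be compared without it. Among genes under 50 kb, 0 of 21 receptor genes had a peak, with an upper limit of 16.1%, beside 10.8% of all genes of that length. Among genes of 50 to 150 kb, 6 of 17 had one (35.3%, interval 14.2 to 61.7%), beside 28.4%. Among genes over 150 kb, 16 of 18 had one (88.9%, interval 65.3 to 98.6%), beside 59.7%. In this last bin the receptor genes were longer, with a median of 333 kb against 247 kb, and FLT1 and EPHA7 were the 2 without a peak. EGFR and ROR2 had peaks outside their RefSeq span only. With peaks inside the span alone, a count added after the values were seen, 14 of the 18 had one (77.8%, interval 52.4 to 93.6%), beside 60.2%, which lies within the interval. The density in this bin was 4.57 peaks per Mb (interval 3.12 to 6.45), beside 3.53 in all genes of that length.

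**Figure D1:**
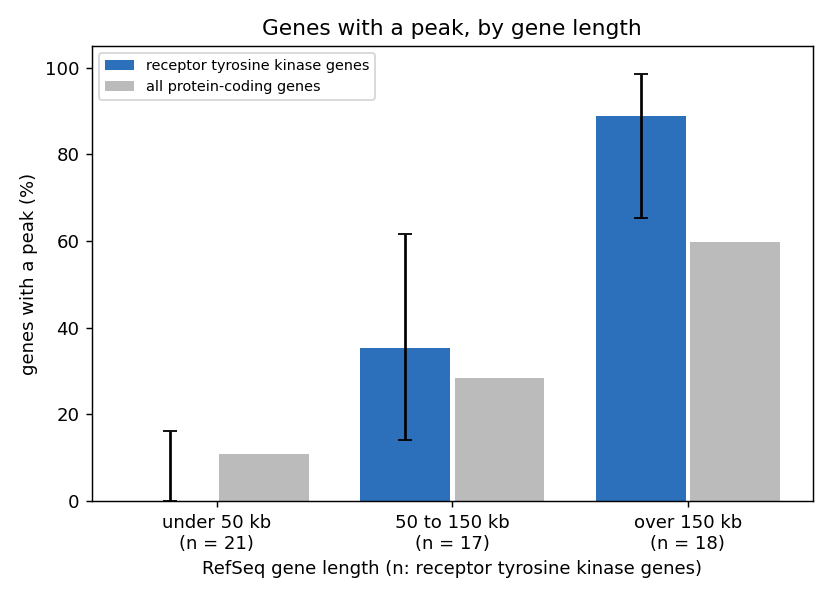
Share of genes with a peak (y axis, percent) by RefSeq gene length (x axis) for the receptor tyrosine kinase genes (blue, with exact 95% intervals) and for all protein-coding genes (grey). The share of receptor genes was 0 of 21 under 50 kb, 6 of 17 from 50 to 150 kb and 16 of 18 over 150 kb.

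Counted per length, the family lay near the average gene. The spans of the 56 genes covered 9.15 Mb and held 40 peaks, whichever gene they were assigned to, of which 39 are among the 46. This is 4.37 per Mb (interval 3.12 to 5.95), beside 3.87 per Mb in all protein-coding genes (interval 3.76 to 3.98). At the peak density of the protein-coding genes on each receptor's own chromosome, the same length would hold 36.1 peaks. The interval of the family includes the value of all genes, and a difference was not detectable at this depth.

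The 46 peaks were low, as in the list as a whole. Their fold enrichment over the peak caller's background ran from 2.53 to 4.24 with a median of 2.73, which was also the median of all peaks, and their length from 258 to 487 bp with a median of 296.5 bp. The number of ChIP fragments at each summit was recovered from fold enrichment and p. It was 2 in 35 peaks, 3 in 9 and 4 in 2. Peaks of 3 or more fragments made up 23.9% (interval 12.6 to 38.8%), beside 25.8% of all peaks. A count of 2 has an interval of 0.242 to 7.22 fragments and a count of 4 one of 1.09 to 10.2, so that the heights of single peaks do not differ beyond counting error. The lowest q was 0.473, at 2 peaks, and 36 of the 46 peaks had a q of 1. No receptor peak passed a q of 0.05, and neither did any other peak of the list.

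**Figure D2:**
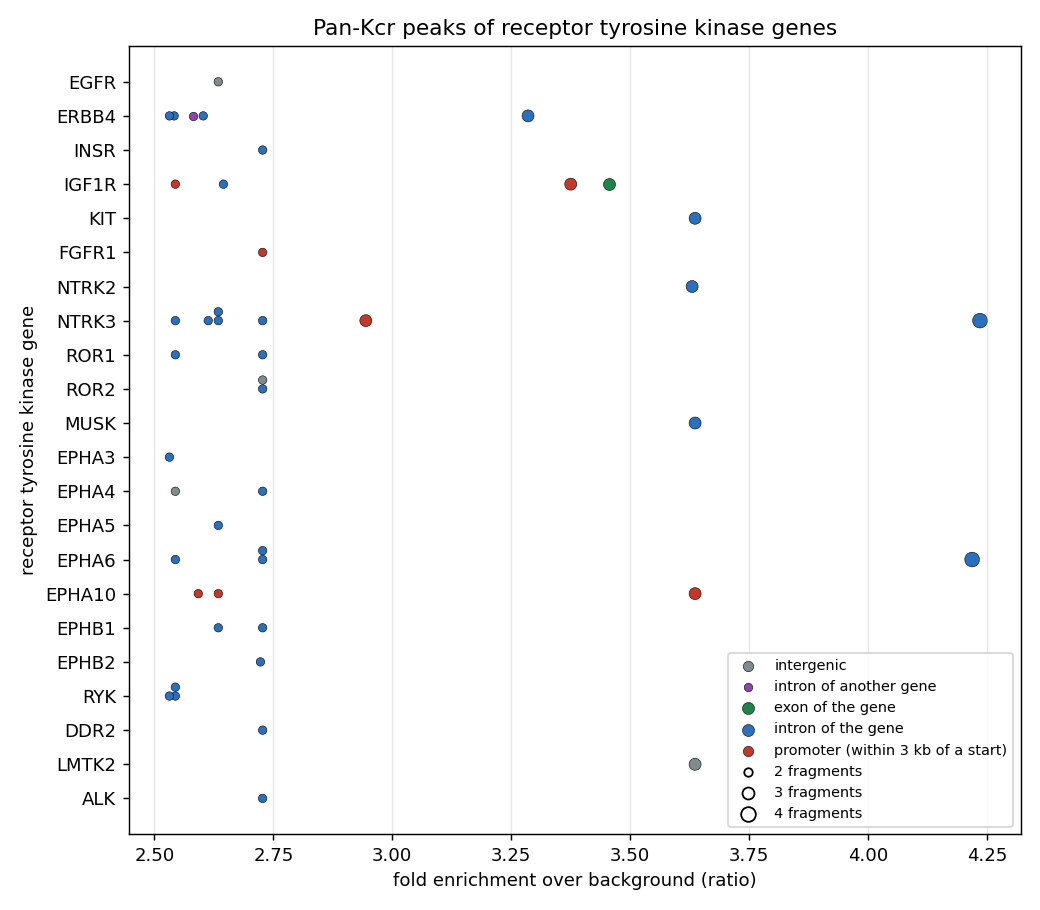
Fold enrichment (x axis, ratio to background) of the 46 peaks of 22 receptor tyrosine kinase genes (y axis, ordered by subfamily). Each point is 1 peak, its colour gives the place, its size the recovered fragments, and points of equal value are shifted upwards; the peaks of 4 fragments at NTRK3 and EPHA6 stand at 4.24 and 4.22, and the 35 peaks of 2 fragments lie between 2.53 and 2.73.

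Promoter and gene body were then compared. By the annotation text, 34 of the 46 peaks lay in the body of their receptor gene (73.9%, interval 58.9 to 85.7%), 33 in introns and 1 in an exon. Among them, a peak of ROR2 and a peak of RYK lay 135 and 3.81 kb past the end of the RefSeq gene. At a promoter, which the authors set at 3 kb around any transcript start, lay 7 (15.2%, interval 6.34 to 28.9%). Another 4 were intergenic, and 1 lay in an intron of a different gene. Over all protein-coding genes under the same rule, 55.7% of 5734 pairs of peak and gene were in the gene body and 22.3% at the promoter. The receptor genes were longer, with a median of 84.1 kb against 24.1 kb, and these shares were not adjusted for length. The intervals treat peaks as independent, although NTRK3 held 7 of the 46 and ERBB4 5. With peaks assigned by symbol alone the promoter share of the receptor genes was 21.2% (7 of 33), beside 28.0%. The fold enrichment of the 7 promoter peaks ran from 2.54 to 3.64 with a median of 2.73, and that of the 34 gene body peaks from 2.53 to 4.24 with the same median. At least 3 fragments were found in 3 of the 7 promoter peaks and in 7 of the 34 gene body peaks, with intervals of 9.90 to 81.6% and 8.70 to 37.9% that overlap.

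**Figure D3:**
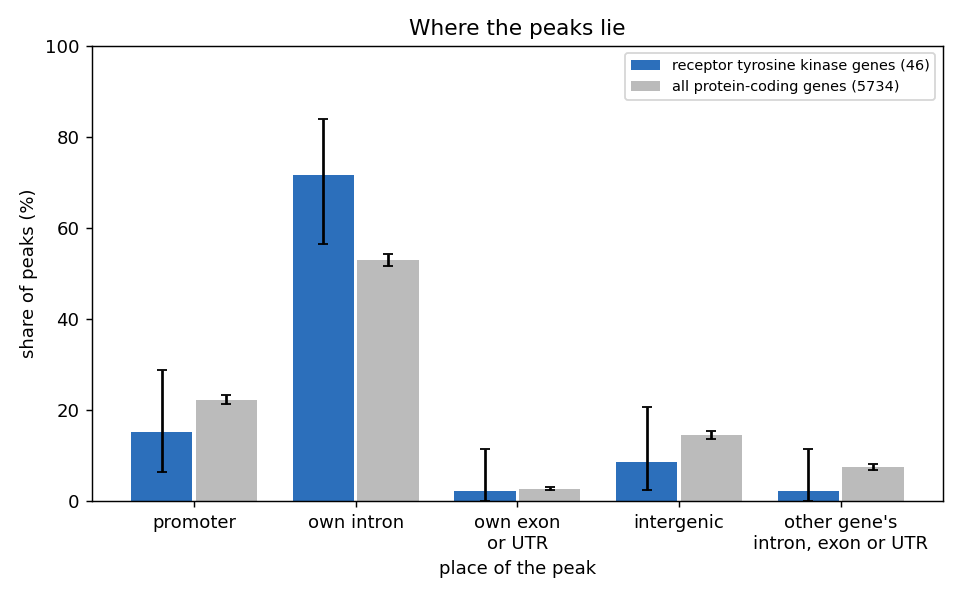
Share of peaks (y axis, percent, with exact 95% intervals) by place (x axis) for the 46 peaks of receptor tyrosine kinase genes (blue) and for the 5734 pairs of peak and protein-coding gene under the same rule (grey). Introns of the own gene, by the annotation text, held 71.7% of the receptor peaks and 52.9% of the pairs. The receptor genes were longer, and the shares were not adjusted for length.

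Promoter peaks were found at 4 receptor genes (7.14%, interval 1.98 to 17.3%), beside 5.99% of all protein-coding genes. They were EPHA10, FGFR1, IGF1R and NTRK3. Within 1 kb of a transcript start there were 3 genes (5.36%), FGFR1, IGF1R and NTRK3, beside 3.21%. Without chromosome 15, which carries IGF1R and NTRK3, 2 genes with a promoter peak were left. The starts were internal ones. The summits of the 7 promoter peaks lay 9.88 to 262 kb downstream of the outermost RefSeq start of their gene, and 0 of 7 (upper limit 41.0%) lay within 3 kb of it, beside 30.8% of the 1280 promoter peaks of protein-coding genes. None of the 7 belonged to a transcript annotated as protein-coding, beside 49.5% of the 1280. The transcripts were 4 processed transcripts, 2 with a retained intron and 1 subject to nonsense-mediated decay. EPHA10 held 3 of the 7 peaks and IGF1R 2, and the upper limit treats the peaks as independent. The 1280 peaks were not matched to the receptor genes for length or for the number of internal starts.

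The position of the peaks along the genes was counted but not tested, and the same split was not made for all genes. Each gene was split into 4 equal stretches from its start to its end. Of the 39 peaks inside the RefSeq span of their gene, 8 lay in the first stretch, 11 in the next, 9 in the one after and 11 in the last. The 39 include the promoter peaks, and NTRK3 held 7 of them, EPHA6 4 and ERBB4 4. The remaining 7 of the 46 peaks lay outside the span of 6 genes. No summit came closer to an outermost start than 8.20 kb, the distance of the intergenic peak upstream of LMTK2.

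**Figure D4:**
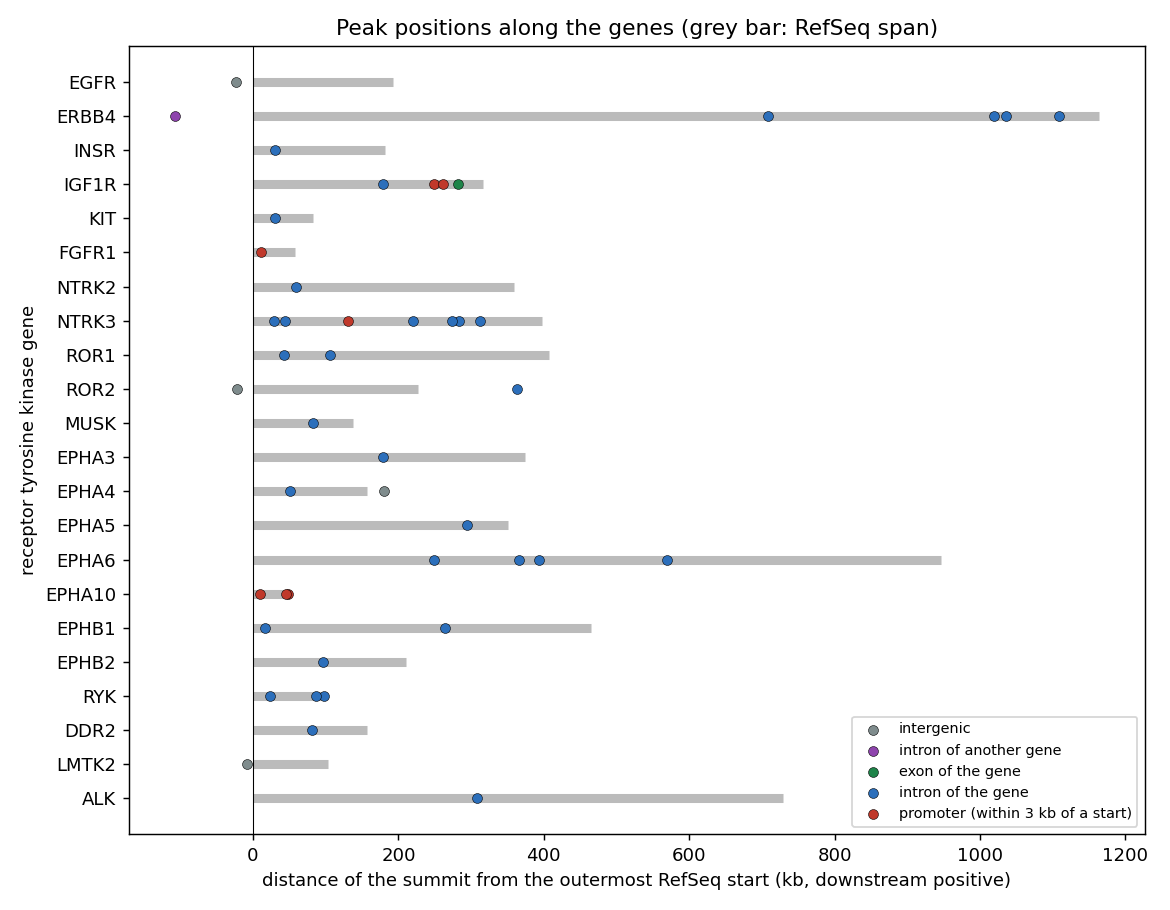
Position of each peak summit (x axis, kb from the outermost RefSeq start, downstream positive) for the 22 receptor tyrosine kinase genes with a peak (y axis), with the RefSeq span as a grey bar. Peaks are spread over the spans of long genes such as ERBB4, EPHA6 and NTRK3, and the red promoter peaks lie inside the genes, 9.88 to 262 kb from the start.

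Among the neurotrophin receptors, both members had peaks, and both are over 150 kb long, where 59.7% of all protein-coding genes had one. NTRK3, the receptor of neurotrophin 3 (ENSG00000140538), held 7 peaks, the most of the family. Among genes over 150 kb, 1.27% reached that number, a share looked up after NTRK3 had been seen, and with 397 kb NTRK3 was longer than the median gene of this bin. They were spread over 283 kb, with gaps of 9.51 to 88.4 kb. The highest, at chr15:88227025-88227406 in intron 3 of 18, had a fold enrichment of 4.24 with 4 fragments over a background of 0.180 fragments, and lay 29.5 kb from the outermost start. The promoter peak at chr15:88125367-88125648, 713 bp from an internal start and 131 kb from the outermost one, held 3 fragments at 2.94-fold, and its background of 0.359 fragments was the highest of all 46 receptor peaks. The other 5 were intronic, with 2 fragments each at 2.54 to 2.73-fold. NTRK2, the receptor of BDNF, had 1 peak in its 359 kb, in intron 11 of 19 at chr9:84728036-84728386, with 3 fragments at 3.63-fold.

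The insulin receptor family had peaks at 2 of 3 genes. IGF1R and INSR are over 150 kb long, where 59.7% of all protein-coding genes had a peak. INSRR is under 50 kb long, where 10.8% had one. IGF1R, the receptor of the insulin-like growth factors (ENSG00000140443), held 4 in its 316 kb. The strongest lay in exon 15 of 21 at chr15:98930244-98930614, with 3 fragments at 3.46-fold, and was the only exonic peak of the family. A promoter peak at chr15:98897946-98898206, 660 bp from an internal start, held 3 fragments at 3.38-fold. Another at chr15:98909965-98910254, 2.92 kb from an internal start, held 2 at 2.54-fold, and the intronic peak at chr15:98827414-98827714 held 2 at 2.65-fold. All 4 lay 179 to 282 kb from the outermost start. INSR, the insulin receptor, had 1 intronic peak of 2 fragments at 2.73-fold on chr19:7264582-7264845, and INSRR had none.

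NTRK3 and IGF1R lie on chromosome 15, and the receptor genes of this chromosome held 11 peaks in 0.748 Mb, or 14.7 per Mb (interval 7.35 to 26.3), beside 4.95 per Mb in the protein-coding genes of chromosome 15. This comparison was chosen after the values were seen. The other 2 receptor genes of the chromosome, TYRO3 and LTK, had no peak in 24.4 and 10.2 kb. Recovered backgrounds of the 11 peaks ran from 0.0999 to 0.359 fragments, and all but the lowest were 0.134 or more. The median background was 0.139 over the receptor peaks and 0.120 over all peaks. The part of the background in this density was not tested.

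The ephrin receptors, which bind ephrins on neighbouring cells and guide axons and cell sorting, were the largest subfamily, with 14 peaks at 7 of 14 genes. All of those with a peak except EPHA10 are over 150 kb long, where 59.7% of all protein-coding genes had one. EPHA10 is 50 to 150 kb long, where 28.4% had one. Those without a peak are under 50 kb long, where 10.8% had one, except EPHA7, which is over 150 kb long. EPHA10 (ENSG00000183317), whose kinase domain is regarded as inactive, held 3 peaks in 51.2 kb, all at internal promoters. The middle one in the order of coordinates, at chr1:37719996-37720370, had 3 fragments at 3.64-fold and lay 1.49 kb from an annotated start. Those at chr1:37716194-37716451 and chr1:37755135-37755406 had 2 fragments each, at 2.63 and 2.59-fold. Among genes of 50 to 150 kb, 0.805% had 3 or more peaks in their span, and 1 of the 17 receptor genes of that length did. Of all protein-coding genes, 0.025% had 3 or more promoter peaks. Both shares were looked up after EPHA10 had been seen.

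EPHA6 held 4 intronic peaks in 947 kb. The strongest, at chr3:97063422-97063719, had 4 fragments at 4.22-fold over a background of 0.185 fragments and lay 249 kb from the start, and the other 3 had 2 fragments at 2.54 to 2.73-fold. A further peak inside EPHA6, at chr3:97481553-97481838 with 3 fragments at 3.51-fold, was listed as the promoter of the pseudogene AC117470.1. It is not among the 46 peaks, but it enters the densities per Mb of the family and of the ephrin receptors, which count every peak inside a gene span. EPHB1 held 2 intronic peaks of 2 fragments, at 2.63 and 2.73-fold, and EPHB2 held 1 at 2.72-fold. EPHA4, long studied as a receptor that limits axon growth, had an intronic peak at 2.73-fold and an intergenic one 24.1 kb past its end at 2.54-fold. EPHA3 and EPHA5 each had 1 intronic peak of 2 fragments, at 2.53 and 2.63-fold, found through the annotation text only. EPHA1, EPHA2, EPHA7, EPHA8, EPHB3, EPHB4 and EPHB6 had none.

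The ERBB family, receptors of the epidermal growth factors and neuregulins, had peaks at 2 of 4 genes and none at a promoter. EGFR and ERBB4 are over 150 kb long, where 59.7% of all protein-coding genes had a peak. ERBB2 and ERBB3 are under 50 kb long, where 10.8% had one. EGFR had no peak inside its 193 kb. Its only assigned peak was intergenic, at chr7:54995511-54995830, 23.3 kb upstream of the start, with 2 fragments at 2.63-fold over a background of 0.139 fragments, and the next protein-coding gene on the other side was SEC61G at 236 kb. ERBB4, a neuregulin receptor of 1163 kb, held 4 intronic peaks that the list assigned to pseudogenes lying inside it. The highest was at chr2:211502399-211502664 in intron 19 of 25, with 3 fragments at 3.29-fold, and the other 3 had 2 fragments at 2.53 to 2.60-fold. A further peak, assigned to ERBB4 by symbol, lay 107 kb upstream in an intron of a different annotated gene, with 2 fragments at 2.58-fold. ERBB2 and ERBB3, of 40.6 and 23.4 kb, had none.

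Chromosome 7 carries 6 receptor genes, EGFR, MET, EPHA1, EPHB4, EPHB6 and LMTK2. Their spans held 0 peaks in 0.480 Mb, which allows up to 7.68 per Mb, beside 4.20 per Mb in the protein-coding genes of chromosome 7. A lower density was not detectable at this depth.

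The remaining growth factor receptors had few peaks, and few would be found at the density of their own chromosomes. This density gave 1.06 peaks in the spans of the PDGFR family and 0.591 in those of the fibroblast growth factor receptors. Each of these 2 subfamilies held 1. KIT, the receptor of stem cell factor, had 1 in intron 1 of 20 at chr4:54688490-54688782, with 3 fragments at 3.64-fold, and was the only one of 5 genes of the PDGFR family with a peak. PDGFRA, PDGFRB, CSF1R and FLT3 had none. FGFR1 (ENSG00000077782) was the only fibroblast growth factor receptor with a peak, at chr8:38457664-38457929, 132 bp from an internal start and 10.9 kb from the outermost one, with 2 fragments at 2.73-fold. FGFR2, FGFR3 and FGFR4 had none. The receptors of vascular endothelial growth factor (FLT1, KDR and FLT4), of hepatocyte growth factor and its relative (MET and MST1R), of GAS6 and protein S (AXL, TYRO3 and MERTK) and of the angiopoietins (TIE1 and TEK) had no peak. At the density of their own chromosomes, these subfamilies would hold 0.959, 0.610, 0.823 and 0.515 peaks, in this order. A lower density was not detectable at this depth.

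In the ROR and MUSK family, which includes receptors of Wnt ligands, all 3 genes had a peak, and so did RYK. ROR1 and ROR2 are over 150 kb long, where 59.7% of all protein-coding genes had a peak. MUSK and RYK are 50 to 150 kb long, where 28.4% had one. MUSK, which organises the neuromuscular junction, had 1 intronic peak of 3 fragments at 3.64-fold on chr9:110751841-110752104. ROR1 held 2 in intron 1 of 8, found through the annotation text, at 2.73 and 2.54-fold. ROR2 had an intergenic peak 22.1 kb upstream of its start and a peak in intron 12 of 12 of a long transcript, 135 kb past the end of the RefSeq gene, both at 2.73-fold. RYK, a Wnt receptor whose kinase domain is regarded as inactive, held 3 intronic peaks of 2 fragments at 2.53 to 2.54-fold, and 1 of them lay 3.81 kb past the RefSeq end.

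Of the other members, LMTK2 had an intergenic peak at chr7:98098345-98098778, 8.20 kb upstream of its start, with 3 fragments at 3.64-fold, and OCM2 was the next protein-coding gene on the other side, at 108 kb. ALK, a receptor of the developing nervous system, had 1 intronic peak of 2 fragments at 2.73-fold in 729 kb, and DDR2, a collagen receptor, had 1 at the same fold in 157 kb. PTK7, RET, DDR1, ROS1, LMTK3, LTK and STYK1 had none. The 34 receptor genes without a peak were shorter than the 22 with one, with medians of 41.3 and 219 kb.

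In the 6 subfamilies that cover most sequence, the density of peaks in the gene spans was 10.6 per Mb for the neurotrophin receptors (8 peaks, interval 4.57 to 20.9) and 9.67 for the insulin receptor family (5 peaks, interval 3.14 to 22.6). It was 4.85 for the ephrin receptors (14 peaks, interval 2.65 to 8.14), 3.88 for the ROR and MUSK family (3 peaks, interval 0.800 to 11.3) and 2.82 for the ERBB family (4 peaks, interval 0.768 to 7.21). ALK and LTK had 1.35 per Mb (1 peak, interval 0.0343 to 7.54). The first value was that of 2 genes and rested on NTRK3, which held 7 of the 8 peaks. These intervals overlap one another. That of the neurotrophin receptors lies above the 3.87 of all protein-coding genes, but 19 subfamilies were looked at and no correction was made for that number. At the density of their own chromosomes, 3.21 peaks would be found in the neurotrophin receptors, 2.62 in the insulin receptor family, 11.9 in the ephrin receptors and 5.28 in the ERBB family. Within the ephrin receptors, the EPHA genes had 5.12 peaks per Mb (interval 2.56 to 9.16) and the EPHB genes 4.07 (interval 0.839 to 11.9).

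**Figure D5:**
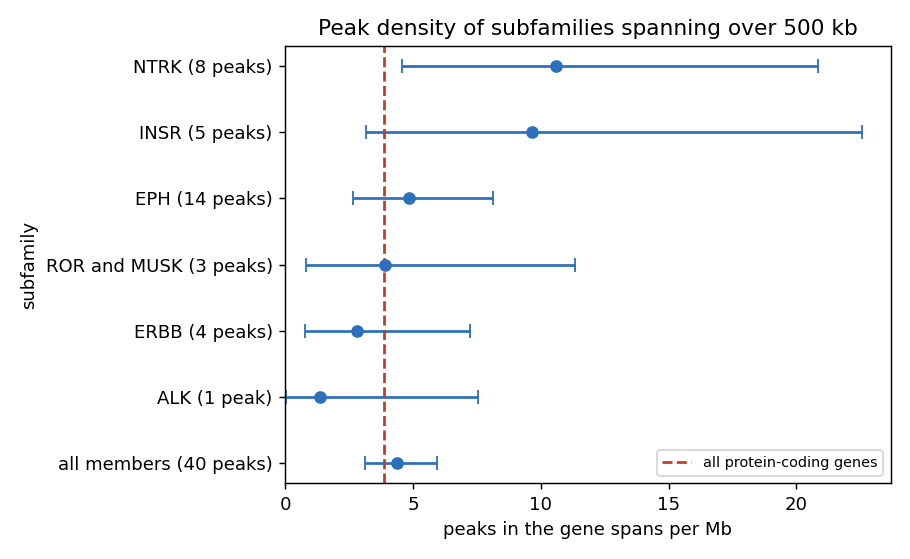
Peaks in the RefSeq gene spans per Mb (x axis) for the 6 subfamilies that cover most sequence and for all 56 receptor genes (y axis), with exact Poisson 95% intervals and the value of all protein-coding genes as a dashed line. The interval of the family includes the line at 3.87, and that of the 2 neurotrophin receptors, 4.57 to 20.9, lies above it.

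The genes that act with the receptors were counted in 14 lists of 178 genes. Of 72 ligand genes, 17 had a peak (23.6%, interval 14.4 to 35.1%) and 2 a promoter peak (2.78%, interval 0.338 to 9.68%), beside 19.5% and 5.99% of all protein-coding genes. The 2 were IL34, a ligand of CSF1R, at 2.73-fold, and ARTN, a ligand of the RET system, at 2.70-fold, each with 2 fragments. Ligands of the ERBB receptors had a peak in 5 of 11 genes, with a median length of 101 kb, and the fibroblast growth factors in 4 of 18, with 10.9 kb. Of 26 adaptors and scaffolds, 5 had a peak and 1, GRB10, a promoter peak of 3 fragments at 3.25-fold.

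Downstream of the receptors, 9 of 23 genes from the RAS exchange factors to ERK had a peak and 4 a promoter peak (17.4%, interval 4.95 to 38.8%). The strongest were at RASGRF1, a RAS exchange factor, with 3 fragments at 2.94-fold, and at MAP2K2, which encodes the kinase MEK2, with 2 at 2.73-fold, 961 bp from a start. Of 14 genes of phosphoinositide 3-kinase, AKT and phospholipase C gamma, 6 had a peak and 2 a promoter peak. These were PIK3R2, a regulatory subunit, with 3 fragments at 3.64-fold 534 bp from a start, and PLCG1 with 2 at 2.71-fold. Of 32 negative regulators, 9 had a peak and none a promoter peak, with an upper limit of 10.9%. Among 11 genes of the JAK, STAT and SRC families, 2 had a peak and none a promoter peak, with an upper limit of 28.5%. The interval of each promoter share given here includes the 5.99% of all protein-coding genes. The counts of genes with any peak stand beside 19.5% of all protein-coding genes, whose median length was 24.1 kb. The lists downstream of the receptors and the negative regulators held longer genes. Medians were 80.5 kb from the RAS exchange factors to ERK and 89.0 kb for phosphoinositide 3-kinase and its partners. They were 57.7 kb for the negative regulators and 89.2 kb for the JAK, STAT and SRC families. The adaptors and scaffolds had 45.7 kb, and the ligand genes, with 24.0 kb, were not longer. The counts were not adjusted for length.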

How the data were processed

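The authors deposited 1 peak list for the ChIP library of crotonate-treated T98G cells and its input. For each peak it gives the fold enrichment as a ratio, the p-value and q-value as −log10, the place and the nearest transcript, all made by the authors. The sources used here give no aligner, peak caller, threshold or build. Of 6255 listed transcripts matched by symbol, 1093 had the start and end of their RefSeq gene on GRCh38.p14 to the base, and coordinates were read on that build.

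Members, lists and the rule for named genes (all members with a peak, the 10 strongest peaks, members with 3 or more peaks, list genes with the strongest promoter peaks) were chosen with earlier results of these data known. Ensembl identifiers in the annotation text were matched through the list itself or, for 5 peaks of 4 receptor genes (ROR1, ALK, EPHA3 and EPHA5), through the 1 protein-coding RefSeq gene whose span held all peaks of the identifier. This second way was right for 99.47% of 1511 identifiers known from the list. Fragments k and background b were recovered from fold = (k + 1)/(b + 1) and p = P(Poisson(b) > k), to within 6.52e-05 on the −log10 scale, and for 100% of 2000 simulated peaks. The simulated peaks were made with these same formulas, so they check the inversion and not whether the peak caller used the formulas. Alternatives were a median fold filter, 3 or more fragments, merging within 1 kb, symbols only, no intergenic peaks and promoter windows of 1 and 5 kb. The work was done in Python 3.11.15 with scipy 1.17.1, pandas 2.3.3, numpy 2.4.6 and, for figures, matplotlib 3.10.9.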

Additional observations from a re-analysis of the deposited data

How the results depend on the processing

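Of 30 values recomputed under the alternatives, 26 stayed within 1.5 times of the count or within the interval of the share. A filter at the median fold enrichment of the whole list left 23 receptor peaks at 17 genes. Keeping peaks of 3 or more fragments left 11 peaks at 9 genes. Without chromosome 15, an alternative chosen after seeing the data, 2 receptor genes had a promoter peak, EPHA10 and FGFR1. For the first 2 settings the loss follows from the filter. Counting every peak inside the RefSeq spans, whichever gene it was assigned to, also chosen later, gave 40 peaks at 19 genes, 39 of them among the 46. Merging peaks within 1 kb changed nothing in the 4 counts and shares. The promoter share ran from 6.52% with a 1 kb window to 27.3% in peaks of 3 or more fragments. No paired analysis was possible because only a single library was immunoprecipitated. Most receptor peaks rest on 2 fragments, and depth limits every one of them.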
